A study of Arabidopsis thaliana with 8 samples.

Results

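Chromosome ends were examined as the outermost 100 kb at either end of the 5 nuclear chromosomes of Arabidopsis thaliana, on the TAIR10 coordinates. Their members are the listed nucleosomes whose center lies in those windows. Over the 4 lists together these were 13652 of 1417407 nuclear nucleosomes, 0.963%, on 0.839% of the genome. The starts of chromosomes 2 and 4 adjoin the arrays of ribosomal RNA genes (rDNA), and those 2 ends are described apart from the other 8. The 8 ends held 2677 of 316733 nucleosomes after low digest mock, 2110 of 242336 after low digest dex, and 3765 of 482098 after high digest mock, while the list named high digest dex had 3134 of 376240 there. The 2 ends beside rDNA held 458, 355, 634 and 519 in the same order, and every run of 4 values below keeps this order.

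The nucleosomes come from micrococcal nuclease sequencing (MNase-seq), in which the enzyme cuts exposed DNA and the protected fragments are read. All plants were Landsberg erecta carrying 35S:LFY-GR, the floral regulator LEAFY fused to the steroid-binding domain of the glucocorticoid receptor and driven throughout the plant by a viral promoter, so that dexamethasone (dex) sends the fusion into the nucleus. Roots of seedlings grown for 3 weeks spent 5 days on a medium that induces callus, with mock or dex for the last 1 h of that time. Chromatin was then digested with little MNase, which keeps easily lost nucleosomes, or with the standard high amount, and 2 libraries were sequenced per condition. The deposited lists hold 1 set of nucleosomes per condition with no value per library, so no test between conditions was possible and all values are descriptions. Each nucleosome is a 140-bp interval with an occupancy signal at its summit, and it is ranked only within its own list, because the scale between lists is not given. Entries of the list named high digest dex carry names of a low digest dex library, and any direction drawn from it rests on its label. Read numbers are not in the lists, so the depth is unknown and a longer list cannot be told apart from a deeper one.

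A plant chromosome ends in a telomere, a long array of the repeat TTTAGGG that protects the end from being treated as a break. Inward of it lies the subtelomere, which in Arabidopsis is short, so that ordinary genes begin within a few kilobases of the repeat. In contrast, the short arms of chromosomes 2 and 4 carry the nucleolus organizers, in which many copies of the ribosomal RNA genes follow each other, and the reference holds only their inner edge.

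The terminal bases of the reference are shown first because they fix what an end is in these coordinates, and how little of the telomere can hold a listed nucleosome. They are TAIR10 plus-strand bases from RefSeq TAIR10.1, with the telomere repeat unit, TTTAGGG or its reverse complement CCCTAAA, in capitals. The unit was searched on both strands, and 0.850% of consecutive 70-base stretches of the gene-rich interior held it.
Chromosome 1 start, chr1:1-70: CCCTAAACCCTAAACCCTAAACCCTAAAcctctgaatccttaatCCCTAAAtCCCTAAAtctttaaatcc
Chromosome 1 end, chr1:30427602-30427671: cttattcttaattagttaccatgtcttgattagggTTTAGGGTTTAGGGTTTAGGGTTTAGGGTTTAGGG
Chromosome 2 end, chr2:19698220-19698289: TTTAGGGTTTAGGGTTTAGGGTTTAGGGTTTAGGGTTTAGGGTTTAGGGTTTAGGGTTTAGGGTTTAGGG
Chromosome 3 start, chr3:101-170: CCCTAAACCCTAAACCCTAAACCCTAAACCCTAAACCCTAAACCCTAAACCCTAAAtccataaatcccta
Chromosome 3 end, chr3:23459761-23459830: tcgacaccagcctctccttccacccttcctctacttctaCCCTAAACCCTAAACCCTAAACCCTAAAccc
Chromosome 4 end, chr4:18584987-18585056: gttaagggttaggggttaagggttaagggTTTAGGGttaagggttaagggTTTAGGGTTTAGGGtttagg
Chromosome 5 start, chr5:1-70: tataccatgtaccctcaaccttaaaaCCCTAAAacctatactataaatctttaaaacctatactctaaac
Chromosome 5 end, chr5:26975433-26975502: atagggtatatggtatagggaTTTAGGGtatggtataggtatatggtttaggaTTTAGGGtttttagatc
Chromosome 2 start, chr2:1001-1070: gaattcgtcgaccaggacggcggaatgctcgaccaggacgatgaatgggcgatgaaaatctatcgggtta
Chromosome 4 start, chr4:1001-1070: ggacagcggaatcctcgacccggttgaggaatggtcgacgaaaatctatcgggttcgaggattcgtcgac

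Perfect telomere repeat reached inward from the last known base for 257 bp at the end of chromosome 2, 56 bp at the start of chromosome 3, 41 bp at the end of chromosome 1, 30 bp at the start of chromosome 1 and 24 bp at the end of chromosome 4. Both ends of chromosome 5 carried scattered units but no perfect run of at least 14 bp. At the end of chromosome 3 the run of 32 bp had the opposite orientation, with CCCTAAA on the plus strand where the ends of chromosomes 1, 2 and 4 have TTTAGGG. The starts of chromosomes 2 and 4 open with 1000 unknown bases followed by rDNA-side sequence, and that of chromosome 3 with 100. The reference therefore stops within the telomere or before it, and the telomere proper was not measured.

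Nucleosomes were listed close to the last known base at most ends. Over the 8 ends the distance from the outermost listed interval to the last known base had a median of 366 bp after low digest mock, 261 bp after low digest dex, 165 bp after high digest mock and 425.5 bp with the list named high digest dex. The shortest distance in each list was 111, 141, 41 and 119 bp, and the longest 9830, 9820, 9850 and 688 bp. All 3 of those longest distances above 9000 bp belonged to the end of chromosome 1.

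At both ends of chromosome 5 the outermost nucleosome was at nearly the same place in every list. It lay 111, 141, 151 and 141 bp from the start of the chromosome and 191, 201, 171 and 191 bp from its end. At the chromosome 5 start its occupancy ranked at the 77.9, 51.9, 97.5 and 95.2 percentile of its list, and at the chromosome 5 end at the 83.8, 80.1, 67.8 and 75.8 percentile. Chromosome 3 end was similar, with distances of 149, 149, 159 and 119 bp. At the start of chromosome 1, by contrast, they were spread over 441, 261, 41 and 531 bp, and at the end of chromosome 4 over 570, 1025, 235 and 520 bp.

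The intervals that reach into degenerate telomere repeat are shown because they are the nearest that these lists come to a telomeric nucleosome. The outermost interval of high digest mock at the start of chromosome 1 lay 41 bp from the first base and held 4 repeat units, again in capitals. That at the end of chromosome 2 lay 668 bp from the last base, on the inner side of the perfect array, and held 7 units.
Chromosome 1 start, chr1:42-181: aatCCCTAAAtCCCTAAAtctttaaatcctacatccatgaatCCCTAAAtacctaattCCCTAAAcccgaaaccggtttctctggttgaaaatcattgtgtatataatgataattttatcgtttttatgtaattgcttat
Chromosome 2 end, chr2:19697482-19697621: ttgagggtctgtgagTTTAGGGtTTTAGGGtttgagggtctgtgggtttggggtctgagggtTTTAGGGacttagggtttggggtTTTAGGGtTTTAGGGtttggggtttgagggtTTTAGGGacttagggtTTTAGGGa
Every 31-base stretch centered in either interval occurs once in the reference, so reads from these intervals could be placed. At the end of chromosome 2 all lists placed the outermost nucleosome within 40 bp of each other, at distances of 668, 648, 668 and 688 bp, with 7, 8, 7 and 6 units inside it. Its occupancy ranked at the 36.6, 35.8, 22.0 and 20.1 percentile.

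The share of listed nucleosomes that hold the repeat unit did not differ between the 8 ends and the interior beyond counting error. Of those at the 8 ends, 37 of 2677 (1.38%, Wilson 95% interval 1.00 to 1.90), 23 of 2110 (1.09%, 0.727 to 1.63), 68 of 3765 (1.81%, 1.43 to 2.28) and 48 of 3134 (1.53%, 1.16 to 2.02) held at least 1 unit. In gene-rich interior windows the shares were 1.57%, 1.32%, 1.65% and 1.67%. The unit itself was more frequent at the 8 ends. There 2.12% (1.78 to 2.53) of consecutive 140-base stretches held it, against 1.76% in the interior. In both sets and every list the share of nucleosomes lay below that of stretches. At the 8 ends only the interval of high digest mock reached the share of stretches. Beyond the outermost kilobase, 111 units lay in the 8 ends, and a listed nucleosome covered 32.4%, 20.7%, 56.8% and 41.4% of them, against 35.1%, 23.7%, 55.8% and 43.9% of 12285 units of the interior. Intervals here cover counting error only, and nucleosomes of 1 list share their libraries.

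**Figure D1:**
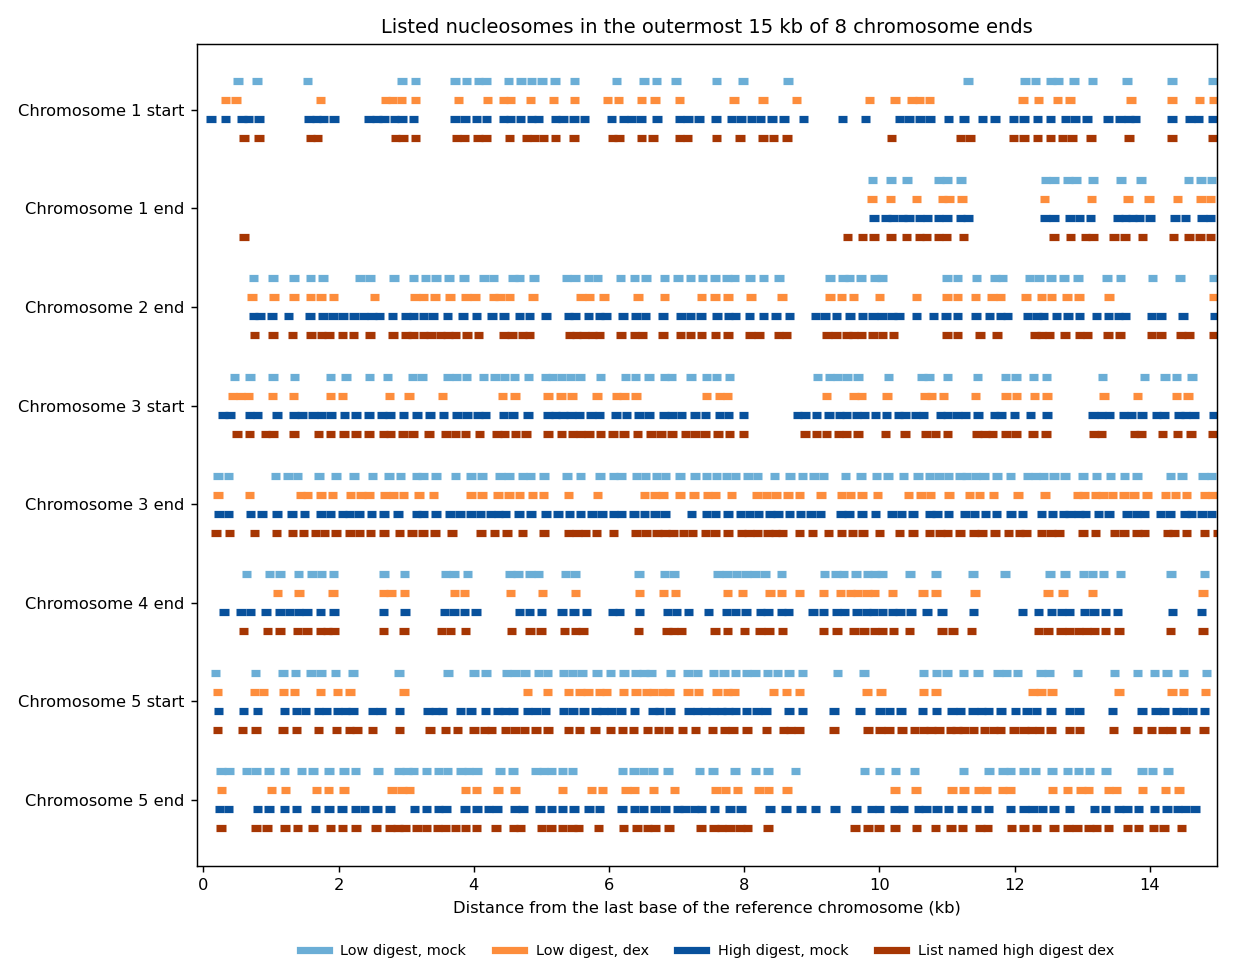
Listed nucleosomes (bars of 140 bp, 1 row per list) in the outermost 15 kb of the 8 ends away from rDNA, against distance from the last base of the reference in kb. The bars begin within about 1 kb of the last base in every list at most ends, whereas the end of chromosome 1 is empty for 8790 bp apart from 1 nucleosome of the list named high digest dex outside that stretch.

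The end of chromosome 1 stood out as a long stretch in which no nucleosome was listed. From 30418212 to 30427001, 8790 bp, none of the 4 lists held one, although 78.5% of its bases lay in stretches that occur once in the reference and 24.5% were coding. The stretch holds the 3' part of AT1G80960, an F-box gene, the whole of AT1G80970 and AT1G80990, both of which encode XH domain proteins, the whole of AT1G80980, and the transcribed pseudogene AT1G81001. AT1G80970, AT1G80980 and AT1G80990 had 0% of their bases covered in each list, with 80.8%, 47.0% and 100% of their bases unique. AT1G80960, the gene in which the stretch begins, was covered at 24.9%, 23.9%, 39.97% and 35.4%.

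Outside the stretch, the list named high digest dex placed 1 nucleosome 530 bp from the last base, in the pseudogene AT1G81020. It is shown because it was the only nucleosome listed between that stretch and the last base. Its occupancy ranked at the 3.07 percentile of that list and 72.9% of its bases were unique.
Chromosome 1 end, chr1:30427002-30427141: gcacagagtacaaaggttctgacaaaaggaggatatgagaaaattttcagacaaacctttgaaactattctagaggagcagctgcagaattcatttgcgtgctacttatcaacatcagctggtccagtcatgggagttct
The libraries are Landsberg erecta and the reference is Columbia. Loci that lack nucleosomes and loci that Landsberg erecta lacks cannot be told apart in these lists.

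Of the 244 protein-coding genes that lie whole in the 8 ends, 6 had no covered base in any list, 2.46% (Wilson 95% interval 1.13 to 5.26), against 356 of 24178 in the gene-rich interior, 1.47% (1.33 to 1.63). Besides the 3 genes of the chromosome 1 end they were AT4G39925, AT5G01080 and AT5G01140. AT5G01140, a gene of the DUF674 family 49890 bp from the start of chromosome 5, was the one of these with ample unique sequence: 99.7% of its 1547 bp. Its upstream neighbour AT5G01130 was covered at 47.5%, 44.9%, 55.7% and 59.8%, and its downstream neighbour AT5G01150 at 22.2%, 0%, 38.8% and 22.8%. Stretches free in all 4 lists were shorter at the other 7 ends away from rDNA. The longest of these had 5690 bp at the start of chromosome 5, at 65952 to 71641, overlaps the pseudogene AT5G01185 and was 19.4% unique. The longest stretch was 2270 bp at the end of chromosome 5 and 1670 bp at the end of chromosome 4, where it overlapped AT4G39955. It was 1490 bp at the start of chromosome 1. At the end of chromosome 2 it was 710 bp and overlapped AT2G48121 and AT2G48130. At the start of chromosome 3 it was 690 bp and overlapped AT3G01240, and at the end of chromosome 3 it was 510 bp. Of these 7 stretches, those at the start of chromosome 5 and the end of chromosome 2 had 42.3% and 40.1% GC, and the other 5 had 22.3% to 28.6%.

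As a whole the 8 ends were slightly denser than the median gene-rich window. The comparison was with 914 of the 1178 interior windows of 100 kb, those in which protein-coding genes take at least 40% of the bases. The 8 ends held 33.5, 26.4, 47.1 and 39.2 nucleosomes per 10 kb, against window medians of 29.4, 23.3, 45.2 and 34.7, ratios of 1.14, 1.13, 1.04 and 1.13. Listed nucleosomes covered 45.5%, 36.2%, 63.3% and 52.8% of the bases of the 8 ends, and 40%, 32.1%, 60.8% and 47.0% of the median window. The excess depended on which ends and which windows entered. Without the ends of chromosomes 2 and 3, left out after their densities were seen, the ratios were 1.04, 1.03, 1.00 and 1.06. Against the 4 windows that follow each of the same ends, from 100 to 500 kb, the ratios of the 8 ends fell below 1, to 0.955, 0.957, 0.966 and 0.991.

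The individual ends differed more than the pooled value shows. The end of chromosome 3 was the densest, with 446, 357, 546 and 475 nucleosomes, and 0, 1, 4 and 3 of the 914 interior windows were denser. Next came the end of chromosome 2 with 398, 320, 498 and 455, and 7, 6, 89 and 8 windows were denser. The start of chromosome 3 held 356, 276, 492 and 404. Chromosome 5 start was the sparsest of the 8 in every list, with 266, 200, 407 and 323, and 29.5%, 22.6%, 22.3% and 33.3% of windows lay below it. The others lay between these, with 309, 257, 479 and 360 at the start of chromosome 1, 275, 231, 447 and 360 at its end, 304, 214, 438 and 370 at the end of chromosome 4, and 323, 255, 458 and 387 at the end of chromosome 5.

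A density at least 1.2-fold above the window median was found at 3 of the 8 ends after low digest mock, the end of chromosome 2 and both ends of chromosome 3, where 9.08% of interior windows passed. After low digest dex it was found at 2, the ends of chromosomes 2 and 3, with 10.1% of windows. After high digest mock it was found at 1, the end of chromosome 3, with 0.547% of windows. The list named high digest dex had it at 2, again the ends of chromosomes 2 and 3, with 6.78% of windows. None of the 8 ends was 1.2-fold below the median in any list, where 17.2%, 19.8%, 11.3% and 14.7% of windows were.

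Both dense ends were also the richest in coding sequence. At the ends of chromosomes 2 and 3, 45.6% and 45.7% of bases were coding and 40.5% and 41.3% were G or C, whereas the median interior window had 34.1% and 36.0%. Across the 914 windows the density and the coding share went together, with Pearson correlations of 0.76, 0.66, 0.66 and 0.76, as a description of neighbouring windows that share libraries, base composition and regional context. A linear fit of density on coding share and on the share of unique bases put the chromosome 3 end 2.83, 2.54, 0.93 and 1.65 residual SD above its fitted value. For the chromosome 2 end, the difference from the fitted value was 1.39 and 1.46 SD in the low digest lists, -0.16 SD after high digest mock and 1.26 SD with the list named high digest dex. All other values of the 8 ends lay within 1.5 SD. Density went with the GC share of the windows too, with Pearson correlations of 0.76, 0.69, 0.58 and 0.73, and GC was not part of the fit.

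**Figure D2:**
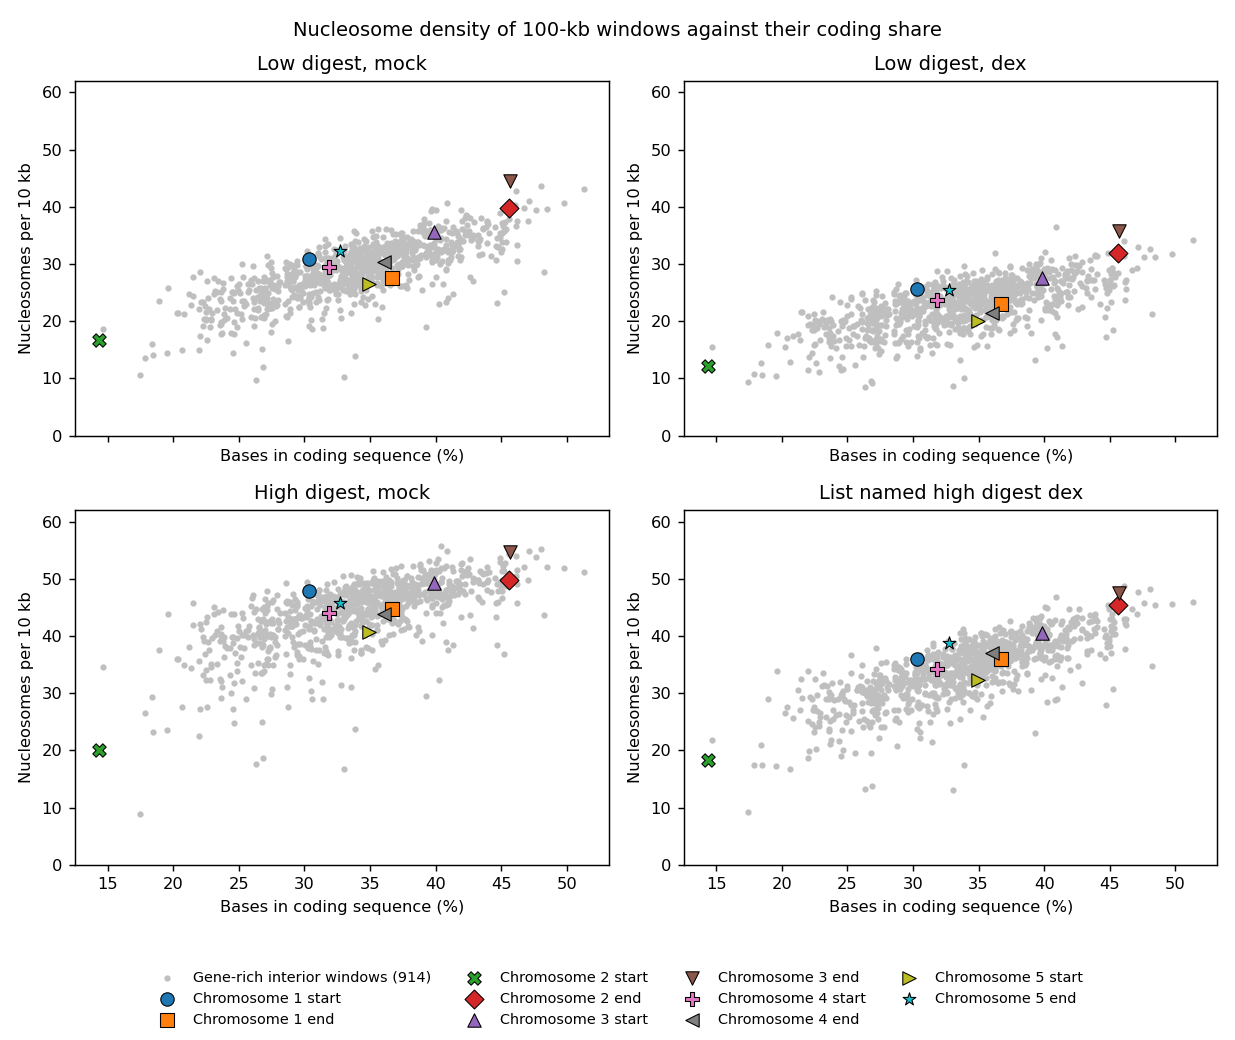
Nucleosomes per 10 kb (vertical) against the percent of bases in coding sequence (horizontal) for 914 gene-rich interior windows of 100 kb (grey) and the 10 ends (coloured symbols), 1 panel per list. The ends of chromosomes 2 and 3 sit at the coding-rich, dense side at 45.6% and 45.7% coding, and the chromosome 2 start at the opposite corner.

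Of all bins up to 500 kb, the outermost kilobase had the lowest density in each list. The first kilobase of the 8 ends held 16, 12, 26 and 18 nucleosomes, 20.3, 15.2, 32.9 and 22.8 per 10 kb, with an SD over the 8 ends of 14.2, 12.6, 16.2 and 9.33. Its coding share was 8.19% and its unique share 88.2%, both lower than further in. From 1 to 2 kb the density was 33.8, 30.0, 45 and 38.8 per 10 kb, although only 13.0% of bases there were coding. From 20 to 50 kb it was 36.2, 27.0, 49.2 and 42.3, and from 400 to 500 kb 34.4, 26.9, 48.1 and 39.4. The second kilobase exceeded the first by 13.5, 14.8, 12.1 and 16.0 per 10 kb. That was less than the SD over ends of the second kilobase, 19.2, 16.9, 20 and 20.3, but for both dex lists, as named, it was more than that of the first. Within ends, the second kilobase was denser at 5, 5, 5 and 6 of the 8 and sparser at 2, 2, 1 and 1.

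**Figure D3:**
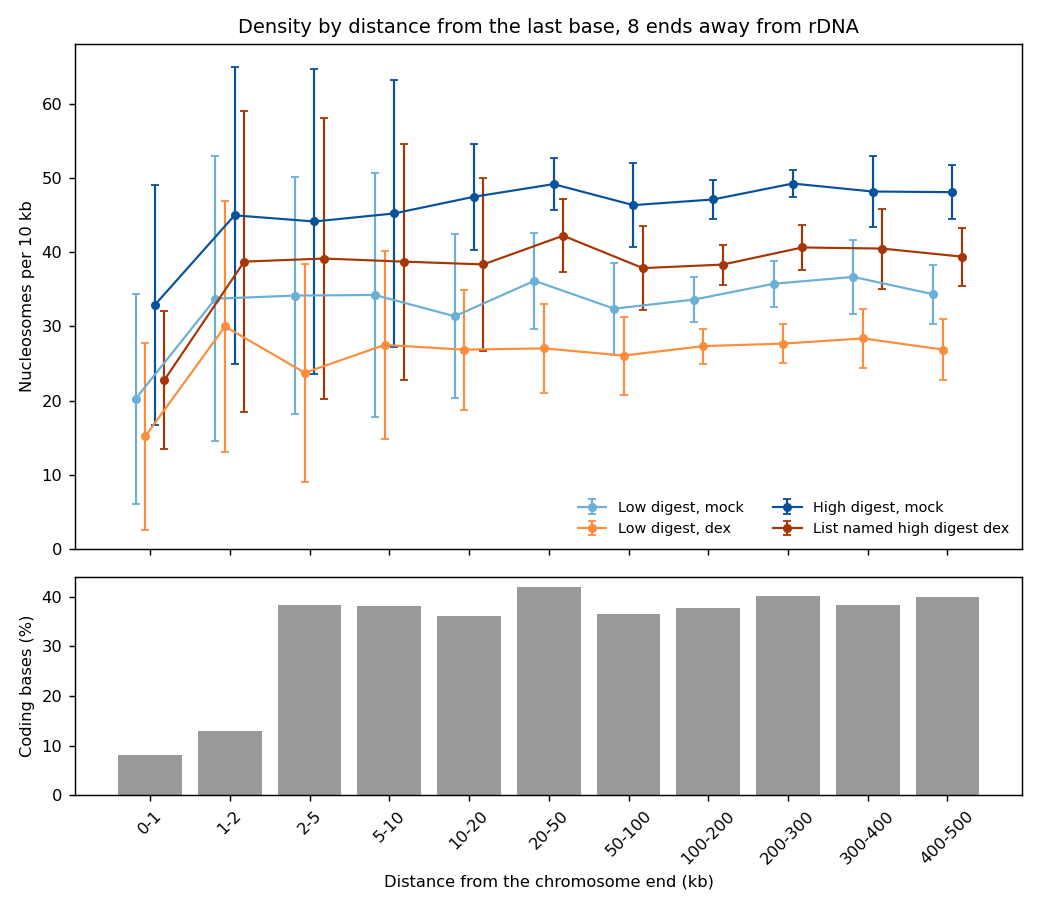
Upper panel, nucleosomes per 10 kb pooled over the 8 ends (points) with the SD over ends (bars), by distance from the chromosome end in kb, 1 line per list. The lower panel gives the coding share of the same bins. The lines are lowest in the first kilobase, at 15.2 to 32.9 per 10 kb, and higher in every bin from 1 kb to 500 kb.

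Occupancy and spacing at the 8 ends were close to those of the interior. The median occupancy percentile was 50.5, 51.9, 52.9 and 53.4 at the 8 ends and 50.9, 51.9, 52.0 and 51.6 in the interior windows pooled. The difference was 1.75 percentile points in the list named high digest dex, with a 95% interval over nucleosomes of 0.213 to 3.55, and -1.35 with lists of equal size. The intervals of the other lists included 0. In the low digest dex list all occupancy values are multiples of 8, so many nucleosomes share a rank there. The end of chromosome 3 was highest of the 8 in both high digest lists, at 60.5 and 59.4, but was at 51.5 after low digest mock. Chromosome 1 end was the lowest of the 8 after low digest mock, at 43.6, where 3.06% of windows were lower. Neighbouring centers 140 to 250 bp apart had a mean spacing of 188, 188, 184 and 185 bp at the 8 ends and of 189, 189, 184 and 187 bp in the interior. Mean spacing in the list named high digest dex was -1.46 bp relative to the interior (-2.98 to 0.0685), but -2.34 bp (-4.41 to -0.272) within 50 kb of the ends and -2.87 bp (-4.86 to -0.873) with lists of equal size. Larger distances, over 300 bp, made up 27.8%, 42.2%, 11.8% and 18.9% of all at the 8 ends, lower in each list than the 32.1%, 46.3%, 13.9% and 24.3% of the interior. At the end of chromosome 3 they were 16.6%, 29.5%, 5.87% and 12.03%, and at the end of chromosome 4 33.0%, 52.6%, 13.3% and 22.5%.

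The shares of nucleosome centers in coding sequence were near those of the interior, although more of the bases at the 8 ends were coding. Their centers were coding in 65.1% (Wilson 95% interval 63.3 to 66.9), 58.0% (55.8 to 60.1), 50.3% (48.7 to 51.9) and 61.2% (59.5 to 62.9), where 37.7% of all bases were coding. In the interior the centers were coding in 65.9%, 56.1%, 47.9% and 61.3%, where 33.9% of bases were. After high digest mock the interval of the ends lay above the interior share. Relative to the coding share of bases, the excess of coding centers was smaller at the ends than in the interior in each list. At the starts of the 244 genes of the 8 ends, coverage was lowest upstream, at 24.3%, 22.6%, 39.3% and 29.6% of genes, between 200 and 20 bp before the start. It was highest 240 to 300 bp inside the gene, at 63.9%, 46.3%, 78.3% and 69.7%. The interior gave 22.5%, 21.6%, 38.3% and 26.6% at its lowest and 53.4%, 37.5%, 72.9% and 64.6% at its highest. The Wilson intervals of the highest values at the ends, 57.7 to 69.7, 40.2 to 52.6, 72.7 to 83.0 and 63.6 to 75.1, lay above the interior in the low digest lists and included it in the others. A maximum over fewer genes is also more variable, and that was not tested.

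Overlap between the lists was higher at the 8 ends than in the interior for part of the pairs of lists, and lower for some pairs under other settings. A nucleosome was called found in a second list that covered 50% or more of it. Such shares rise with the coverage of the second list, and they were not corrected for it. Listed nucleosomes covered 45.5%, 36.2%, 63.3% and 52.8% of bases at the 8 ends. In the interior windows pooled they covered 39.4%, 31.5%, 59.3% and 46.3%. The same limit holds for the bases covered in all lists or in none. The interval of the 8 ends lay above the interior share in 4 of the 12 ordered pairs and included it in the other 8. Of low digest mock nucleosomes at the 8 ends, 64.7% were found after low digest dex, against 63.5% in the interior, and of low digest dex nucleosomes 81.3% were found after low digest mock, against 79.8%. Of high digest mock nucleosomes 76.9% (75.6 to 78.3) were found again under high digest dex, as the list is named, against 73.0%, 66.8% (65.3 to 68.3) after low digest mock, against 62.1%, and 52.0% (50.4 to 53.6) after low digest dex, against 48.9%. Of low digest dex nucleosomes 87.2% (85.7 to 88.6) were found under high digest dex, as named, against 85.0%. With lists of equal size, the excess of high digest mock nucleosomes found after low digest mock was 1.99 percentage points, and its interval of -0.0499 to 3.95 included 0. For high digest mock nucleosomes found under high digest dex, as named, it was 4.36 (2.47 to 6.15). Of low digest mock nucleosomes 92.1% (91.0 to 93.1) were found after high digest mock, against 92.9%. With lists of equal size that difference was -2.43 percentage points (-4.47 to -0.453). The list named high digest dex found after high digest mock gave -1.92 points (-3.59 to -0.302) at 80% overlap. Bases covered in all 4 lists were 19.9% at the 8 ends and 17.2% in the interior, and bases covered in none were 22.7% and 29.0%. The end of chromosome 3 had the most bases covered in all lists, 27.7%, and the fewest in none, 10.5%.

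Ratios between list lengths at each end were set beside those of the interior windows. With depth unknown, only the departure of an end from its own pair of lists is described. Dex over mock after low digest was 0.788 at the 8 ends and 0.792 in the median window, and the end of chromosome 4 was lowest at 0.704, with 6.13% of windows lower. Dex over mock after high digest, as the lists are named, was 0.832 at the 8 ends and 0.775 in the median window, with 92.2% of windows lower. It reached 0.914 at the end of chromosome 2, with 99.9% of windows lower, and 0.870 at the end of chromosome 3, with 98.7% lower, but was 0.752 at the start of chromosome 1, with 31.4% lower. High over low digest in mock was 1.41 at the 8 ends and 1.53 in the median window, and only 1.25 and 1.22 at the ends of chromosomes 2 and 3, with 0.328% and 0.219% of windows lower. High over low digest in dex, as the lists are named, was 1.49 both at the 8 ends and in the median window. Over the windows, Pearson correlations with the coding share were 0.63 for the list named high digest dex over high digest mock. They were -0.62 for high over low digest in mock, and -0.13 and -0.03 for the other ratios. Yet the ends of chromosomes 4 and 5 had 0.845 for the list named high digest dex over high digest mock, with 95.6% of windows lower. Their coding shares were 36.0% and 32.7%, against 34.1% in the median window. At the chromosome 2 start, with 14.4% coding, that ratio was 0.914, and high over low digest in mock was 1.19. All 4 ratios use the same 4 lists and are not independent of each other.

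Single genes at the ends showed the spread behind these averages. Among the 209 protein-coding genes of at least 1 kb in the 8 ends, the mean coverage over the lists had a median of 58.6%, with 5% of genes below 38.9% and 5% above 69.02%. For 20615 such genes of the interior these values were 55.5%, 32.2% and 67.9%. Low digest dex gave the lowest coverage for 83.7% of the 209 genes and 82.2% of the interior genes, and high digest mock the highest for 77.0% and 84.0%.

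The outermost gene held listed nucleosomes at each of the 8 ends but the end of chromosome 1. AT3G63540, which encodes a protein of the thylakoid lumen, comes nearest, 26 bp from the last base of chromosome 3. It was covered at 37.0%, 24.1%, 60.2% and 48.2%, which made it the lowest of that end among genes of at least 1 kb. PRSL1, a regulatory subunit-like protein for protein phosphatase 1, lies 532 bp from the end of chromosome 4 and was covered at 65.4%, 21.9%, 82.2% and 65.3%. AT5G01010, 994 bp from the start of chromosome 5, had 49.9%, 26.8%, 72.1% and 61.9%. AT2G48160 (HULK2), a PWWP domain gene of the HUA2-like family 1468 bp from the end of chromosome 2, had 58.6%, 43.7%, 72.2% and 65.9%. AT3G01015, of the TPX2 family, had 52.1%, 27.4%, 80.01% and 75.7% at 1608 bp from the start of chromosome 3. NAC001, of the NAC transcription factors, had 60.4%, 41.4%, 75.8% and 58.6% at 3630 bp from the start of chromosome 1. AT5G67640 had 56.4%, 36.4%, 72.9% and 69.4% at 4834 bp from the end of chromosome 5. In all 7 of these genes, low digest dex was lowest and high digest mock highest. Low digest dex was likewise lowest in 82.2% of interior genes of at least 1 kb, and high digest mock highest in 84.0%.

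Genes of known function at the ends were taken from a fixed set of 18. Of chromatin and RNA genes, DCL1, the Dicer that processes microRNAs, held 41, 25, 43 and 43 nucleosomes over 8107 bp and was covered at 66.7%, 42.4%, 72.3% and 70.7%. TRB2, a protein that binds the telomere repeat, is itself encoded 17728 bp from the end of chromosome 5. Its gene was covered at 43.5%, 37.2%, 78.4% and 72.0%, so that the low and high digest lists were widely apart. The adjacent H3.3 histone genes HTR4 (AT4G40030) and HTR5 (AT4G40040) near the end of chromosome 4 had 65.7%, 32.9%, 72.1% and 71.4%, and 35.4%, 30.3%, 66.1% and 59.9%. HTR4 and HTR5 thus differed most after low digest mock. REF4, a Mediator subunit that restrains phenylpropanoid synthesis, had 62.2%, 51.6%, 65.6% and 75.4%, and was one of 3 genes of the 18 whose highest coverage came from the list named high digest dex.

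Among regulators, LHY, a MYB factor of the circadian clock, was covered at 51.3%, 36.4%, 68.3% and 61.5%. WRKY40, a defence-related WRKY factor, had 45.4%, 33.5%, 63.4% and 50.6%. HB16, a homeodomain leucine zipper factor, had 45.5%, 22.8%, 67.2% and 65.0%. KIN10, a catalytic subunit of the energy-sensing kinase SnRK1, had 57.3%, 44.2%, 74.8% and 64.6%. BB (BIG BROTHER), a ubiquitin ligase that limits organ size, lies 1098 bp from the end of chromosome 3. Its coverage of 61.9%, 59.7%, 74.2% and 74.9% gave it the highest mean of the 18, above that of 94.8% of all genes of this length.

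Of genes for metabolism and transport, CCD1, which cleaves carotenoids and lies beside BB, had 69.1%, 52.1%, 82.5% and 62.1%. CGS1 (listed as MTO1), the first enzyme committed to methionine synthesis, had 64.0%, 48.3%, 74.6% and 67.0%. SQD2, a sulfolipid synthase of plastids, had 39.2%, 27.5%, 67.0% and 64.6%. NRAMP1, a metal transporter, had 53.5%, 28.5%, 67.3% and 54.6%. Low digest dex gave the lowest coverage in 17 of the 18 genes (94.4%), against 82.2% of interior genes of at least 1 kb. The exception was YAB3, a YABBY factor of leaf polarity near the start of chromosome 4, with 23.1%, 27.7%, 60.4% and 54.4%.

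**Figure D4:**
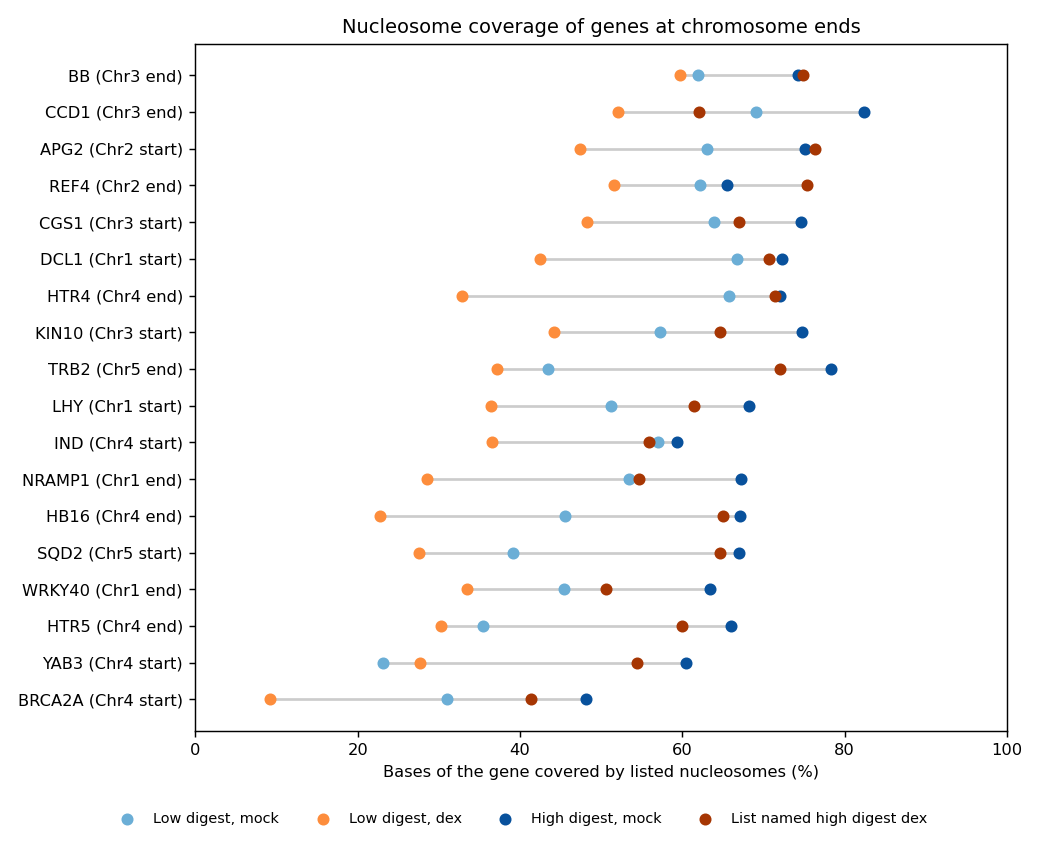
Percent of each gene's bases covered by listed nucleosomes (horizontal) for the 18 fixed genes at the ends, sorted by their mean, with 1 point per list and a line from the lowest to the highest list. Low digest dex is leftmost in 17 of the 18 and high digest mock rightmost in 15, against 82.2% and 84.0% of interior genes. The BRCA2 gene at the start of chromosome 4 has the lowest mean of the 18.

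The best and least covered genes at each end marked the limits. The highest of the 8 ends was AT3G63510, an oxidoreductase of the tRNA dihydrouridine synthase kind 7036 bp from the end of chromosome 3, with 77.6%, 64.8%, 78.8% and 80.5%, and a mean above that of 99.6% of genes. Close to it came AT5G67411, of the GRAS factors, with 81.6%, 42.2%, 83.7% and 92.8%, the kinase gene AT5G01020 with 75.9%, 64.3%, 82.1% and 70.6%, and ISU2, an iron-sulfur cluster scaffold, with 64.8%, 57.0%, 87.6% and 83.0%. At the other ends the best covered were the plastid pyruvate dehydrogenase gene PDH-E1 ALPHA, the kinase gene AT1G80870, the tubby-like gene TLP3 and the pentatricopeptide repeat gene AT4G39952, with means of 69.6%, 65.7%, 66.4% and 67.0%. AT5G67390 was the lowest at the end of chromosome 5, with 15.9%, 7.97%, 52.7% and 23.9%. AT1G01130, with 21.5%, 29.4%, 71.2% and 27.8%, was well covered after high digest mock only. AT4G39955, HB20 and AT2G48130 were the lowest of their ends, with means of 36.3%, 38.4% and 46.9%.

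The start of chromosome 2 differed from all other ends. It held 166, 121, 198 and 181 nucleosomes, or 16.8, 12.2, 20.03 and 18.3 per 10 kb, 0.571, 0.525, 0.443 and 0.528 times the median of gene-rich windows, and was 1.2-fold below the median in each list. From 0 to 70 kb its 10-kb bins held between 1 and 18 nucleosomes, with 12.6% to 43.6% of bases in unique stretches. From 70 to 100 kb the bins were 98.9% to 100% unique and held 39 to 41, 30 to 33, 46 to 51 and 39 to 45. The density thus changed at the same place as the unique share, but other features changed there too. Coding bases made up 0% to 15.5% of the bins before 70 kb and 30.7% to 40.2% beyond. The GC share was 43.2% to 52.2% before and 38.2% to 40.4% beyond. Which of these features the density went with was not tested. Counted over unique bases and centers only, the chromosome 2 start held 30.04, 23.5, 36.8 and 33.1 per 10 kb, or 1.01, 0.989, 0.802 and 0.943 times the median of windows treated alike, with 52.8%, 47.3%, 6.24% and 34.9% of windows lower. Together the 2 ends beside rDNA then held 30.2, 24.4, 42.7 and 34.6 per 10 kb, 1.02, 1.03, 0.931 and 0.984 times that median. Over all bases these ratios were 0.787, 0.770, 0.709 and 0.756.

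The rDNA edge itself held few nucleosomes. In the 18S ribosomal RNA gene AT2G01010, at 3706 to 5513, none was listed in any list, and 3.43% of its bases were unique. In AT2G01020, the short ribosomal RNA gene that follows at 5782 to 5945, each list placed 1 nucleosome that covered 67.1% of the gene, although 0.610% of its bases were unique. The outermost gene, AT2G01008, was covered at 47.5%, 26.1%, 43.7% and 42.8%, with 17.4% of it unique. Inward of it, from 12222 to 21921, 9700 bp held no nucleosome in any list. Of those bases 71.4% lay in pseudogenes and 11.7% were unique. The genes AT2G01035 and AT2G01045 were at 0% in every list, at 2.58% and 1.67% unique. The high occupancy percentiles of the first 10 kb in the low digest lists, medians of 90.9 and 98.4, came from 15 and 9 nucleosomes, and were 34.2 and 70.9 in the high digest lists. The nucleosome of highest occupancy in each whole nuclear list lay between 9942 and 10111. Its center fell just inward of that bin, so it is not among those counted there. In the reference 91.4% to 100% of its bases were unique. The reference holds only the inner edge of the rDNA, so copies outside the reference were not counted.

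Inward of 70 kb the chromosome 2 start was filled like a gene-rich arm. APG2, a component of the protein export machinery of thylakoids, was covered at 63.0%, 47.4%, 75.1% and 76.4%. ORC4, a subunit of the origin recognition complex of DNA replication, had 67.5%, 44.0%, 78.0% and 64.7%. AT2G01070, with 73.3%, 61.2%, 71.7% and 75.9%, had the highest mean at this end.

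The start of chromosome 4, in contrast, was an ordinary gene-rich window. It held 292, 234, 436 and 338 nucleosomes, 1.00, 1.01, 0.974 and 0.984 times the window median, with 92.4% of bases unique. Its first 10 kb were sparser, with 20, 8, 31 and 25 nucleosomes at 74.1% unique, and its densest bin, from 20 to 30 kb, held 39, 41, 55 and 43. Most of the first bin is BRCA2(IV), which encodes a BRCA2 protein of recombination repair. This gene was covered at 31.01%, 9.20%, 48.1% and 41.3% with 67.2% of it unique, and only 6.03% of genes had a lower mean. AT4G00005, the outermost gene 1179 bp from the chromosome start, was covered at 37.0%, 17.4%, 53.8% and 41.2%. UNE11, of the pectin methylesterase inhibitors, held 6 nucleosomes in each list and had the highest mean of all genes named here, with 74.7%, 83.7%, 80.2% and 81.3%. AT4G00070, a RING/U-box gene, was the lowest of this end with 17.8%, 23.8%, 47.6% and 39.9%, and IND, a bHLH factor of fruit opening, had 56.9%, 36.5%, 59.4% and 55.9%.

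**Figure D5:**
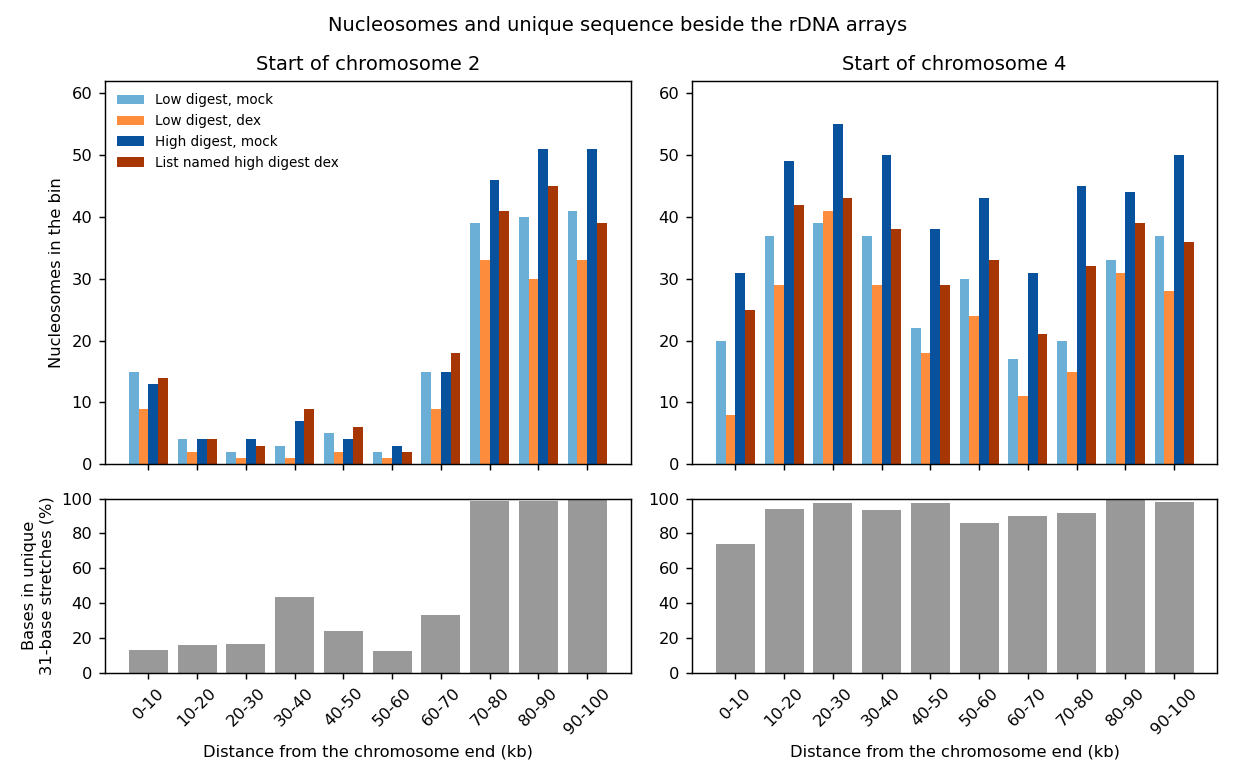
Nucleosomes per 10-kb bin and list (upper panels) and the percent of bases in stretches that occur once in the reference (lower panels), by distance from the start of chromosome 2 (left) and chromosome 4 (right). On chromosome 2 the bars stay at or below 18 up to 70 kb, where the unique share is 12.6% to 43.6%, and are 30 to 51 beyond.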

How the data were processed

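The study sequenced 8 paired-end libraries, 2 per condition. That both libraries entered each deposited list rests on the list labels, as only entries of low digest dex are named as pooled. Per the study's methods, the authors trimmed reads, mapped pairs to TAIR10 with bowtie, keeping pairs with 1 best position, and called nucleosomes with DANPOS. Bowtie 1.2.2 and Picard 2.9.4 are named in the submitters' processing notes. The authors deposited 1 list per condition. The replicates of low digest dex were pooled before calling, and how the others were combined is not given in the sources used here. The deposited value of each nucleosome is a signal, the occupancy at its summit.

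A nucleosome belonged to an end when its center, the mean of start and end, lay within 100 kb of it. Coordinates are printed 1-based, the lists' starts being 0-based. Densities are per known base. A base was called unique when the 31-base stretch centered on it occurs once on either strand of the reference (RefSeq TAIR10.1, whose nuclear chromosomes have the TAIR10 lengths). Ends were set beside 914 gene-rich interior windows, and spacing was taken over neighbours 140 to 250 bp apart. No column was left unused. Functions were checked on simulated lists. Python 3.11.15, numpy 2.4.6, scipy 1.17.1 and matplotlib 3.10.9 were used.

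Since there is 1 list per condition, nothing was tested. Wilson 95% intervals cover counting error only. The ends, genes and windows were chosen with earlier results of these data known. Named genes were the outermost protein-coding gene of each end, 18 genes chosen for their known function, the genes of at least 1 kb with the highest and the lowest mean coverage of each end, and genes in or beside the longest stretch without a nucleosome. AT2G01010, AT2G01020, AT2G01045, ORC4, AT4G39925, AT5G01080, AT5G01130 and AT5G01150 were named after their values were seen. Alternatives were windows of 50 kb, lists of equal size, other comparison windows, unique bases only and a stricter overlap.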

Additional observations from a re-analysis of the deposited data

How the results depend on the processing

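No paired analysis was possible because the lists hold no values per replicate, and for the same reason no replicate could be left out. The excess of density at the 8 ends depended on what it was compared with. In the order low digest mock, low digest dex, high digest mock and list named high digest dex, it was 1.14, 1.13, 1.04 and 1.13 against gene-rich windows. It turned below 1 against the 4 windows that follow the same ends, at 0.955, 0.957, 0.966 and 0.991, and rose against all interior windows to 1.21, 1.21, 1.09 and 1.18. It shrank to 1.04, 1.03, 1.00 and 1.06 without the ends of chromosomes 2 and 3, an alternative chosen after seeing the data. With lists cut to 242336 nucleosomes it was 1.18 in the list named high digest dex. Over unique stretches only, the deficit of the 2 ends beside rDNA changed from 0.787, 0.770, 0.709 and 0.756 to 1.02, 1.03, 0.931 and 0.984. The occupancy rank of the 8 ends less that of the interior was 1.75 percentile points in the list named high digest dex, but -1.35 with equal list sizes and -1.19 against the windows that follow, and 0.88 after high digest mock but 2.71 against all interior windows. The share of the list named high digest dex found after high digest mock, less that of the interior, went from -0.804 to -1.92 percentage points at 80% overlap. That of low digest mock found after high digest mock went from -0.821 to -2.43 with equal list sizes, and that of high digest mock found after low digest mock from 4.74 to 2.17 at 80% overlap and 1.99 with equal list sizes. The causes of these shifts were not tested. All other values, 56 of 80, stayed within their 95% counting intervals, among them all for spacing, 50-kb ends and list length ratios. The number of nucleosomes in a single end or bin limits the precision there, and depth is unknown.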
